A study of Mus musculus with 6 samples.

Results

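The small proline-rich (Sprr) genes encode short proteins rich in proline that become building blocks of the cornified envelope, the cross-linked protein layer under the membrane of stratified squamous cells. Transglutaminases join them to involucrin, loricrin and other envelope proteins. The mouse genes lie side by side on chromosome 3, inside the epidermal differentiation complex. Outside stratified epithelium they are known as genes that simple epithelia switch on under estrogen, injury or inflammation, and Sprr2 genes are known estrogen-induced genes of the mouse uterine epithelium. Members were taken as the probe sets annotated to exactly 1 gene symbol among 10 listed Sprr genes. This gave 6 probe sets for 6 members, Sprr1a, Sprr1b, Sprr2d, Sprr2f, Sprr2h and Sprr3, out of 45037 tested probe sets and 18193 named genes. Sprr2a1 was read only by 3 probe sets that carry several symbols, which are described separately. Sprr2b, Sprr2e and Sprr2g were not named in the probe annotation used here, so their expression is not analysed. Another 3 probe sets read Sprr genes outside the listed 10, namely Sprr2i, Sprr2j-ps and Sprr2k.

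The series measured total RNA from uterine horns of C57BL6J mice, without the cervix, on a 1-colour Affymetrix mouse array. The control group (3 arrays) carried the allele SF1LsL/+ and no Cre. The SF1 group (3 arrays) carried Pgrcre/+ SF1LsL/+, in which a Cre allele at the progesterone receptor locus Pgr was combined with the same SF1LsL allele to express SF1, the nuclear receptor encoded by Nr5a1. Each array held RNA pooled from 2 uteri, taken 2 weeks after surgery; neither the kind of surgery nor the age of the mice is stated in the labels. The SF1LsL allele was common to all arrays. Since Cre was present in the SF1 group alone, effects of Cre, of a Pgr locus holding Cre and of SF1 cannot be told apart.

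Array medians lay between 149.9 and 162.2 intensity units. The brighter Nr5a1 probe set read 138.8, 171.5 and 144.8 in control arrays 1 to 3 and 151.3, 151.2 and 151.4 in SF1 replicates 1 to 3, so it did not separate the groups. Where the 2 Nr5a1 probe sets lie relative to the transgene was not known, and they therefore check no label. Pgr read 4743.84 to 4899.40 in control and 1719.49 to 2027.41 in SF1. Uterine markers were read in every array, but of 11 (Hoxa10, Hoxa11, Msx1, Hand2 and others) 8 fell and 1, Foxa2, rose. In whole tissue, fewer cells of a type and less RNA per cell cannot be told apart. Over all named genes, 8.37% were called higher and 8.11% lower in SF1 at an adjusted p under 0.05 (limma, Benjamini-Hochberg adjustment over all probe sets). Of these calls 50.8% were higher, which became 62.8% when each array was centred on its median.

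Sprr2f was the member with the clearest difference. It read 73.5, 67.2 and 59.5 intensity units in control replicates 1 to 3. The SF1 replicates, in the same order, read 947, 1499.96 and 1247. Every SF1 array stood more than 10-fold above every control array, and within each group the arrays lay close together. Mean intensity rose from 66.7 ± 7.0 to 1231 ± 277 (SD, n = 3), 18.5-fold between the means. On the log2(intensity + 16) scale used for all tests, which understates changes of dim genes, the rise was 3.89 ± 0.16 (SE; 95% interval 3.54 to 4.25; limma adjusted p = 4.57e-06). The call was kept in all 16 alternative analyses, with log2 changes between 3.29 and 4.17 and a highest limma adjusted p of 8.24e-05. The filter on dim probe sets, 1 of the 16, kept Sprr2f through its SF1 values, so that fit is no separate support.

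Sprr2d, a close relative of Sprr2f, also read higher in SF1 but unevenly. It read 65.6, 51.5 and 55.6 in control arrays 1 to 3 and 112.8, 1275.88 and 355.9 in SF1 replicates 1 to 3. The groups did not overlap, but the SF1 arrays spread over more than 10-fold among themselves, with replicate 2 at the top and replicate 1 nearest to control. The means were 57.6 ± 7.25 and 582 ± 613 (SD, n = 3). The log2 change was 2.43 ± 0.66 (SE; 95% interval 0.92 to 3.94; limma adjusted p = 0.0438). Without SF1 replicate 2 the rise was smaller, at 1.58, and still called (adjusted p = 0.0419), and without SF1 replicate 1 it was 3.24 (adjusted p = 0.0045). The call was lost without SF1 replicate 3 (adjusted p = 0.098) or without control replicate 1 (0.0955), 2 (0.0842) or 3 (0.102). It was also lost with a pseudocount of 1 (0.0602) or 64 (0.056) and with a trended, robust variance (0.178). The SD of log2 values among SF1 arrays was 1.66 for Sprr2d and 0.33 for Sprr2f. No probe sequences were at hand, so whether the Sprr2f and Sprr2d probe sets also read other Sprr2 genes was not checked. Among those genes, Sprr2b and Sprr2e had no probe set of their own.

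**Figure D1:**
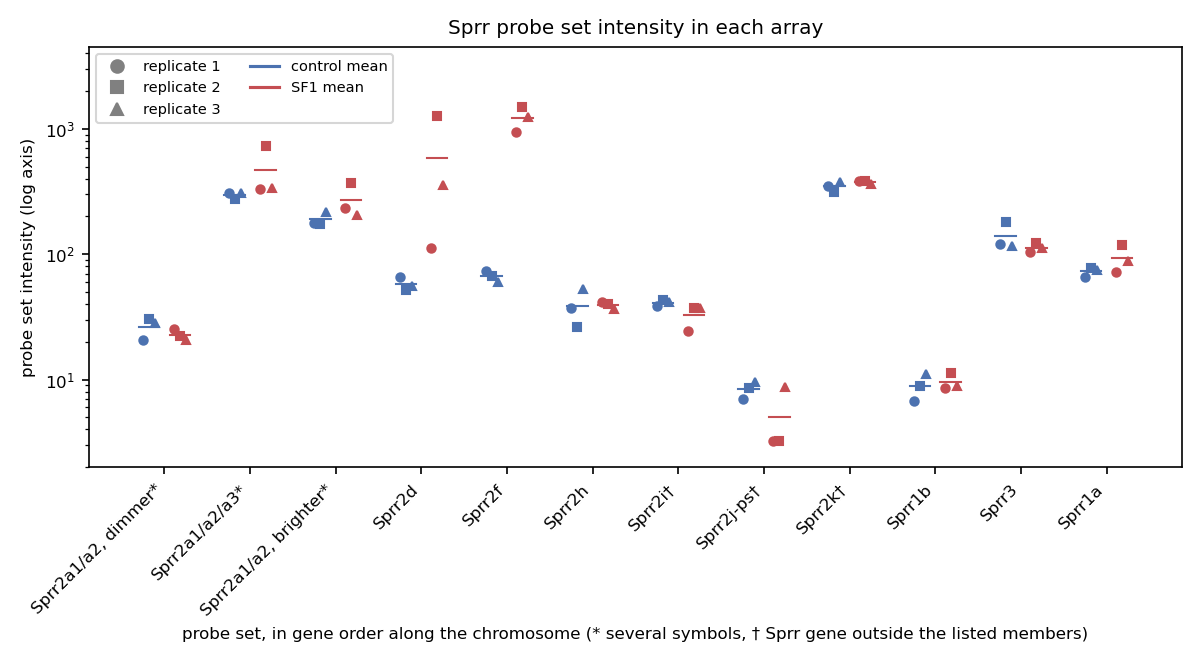
Intensity (log axis) of the 12 Sprr probe sets in each array, in gene order along the chromosome; symbols mark replicates, colours the groups and bars the group means. Sprr2f read 947 to 1499.96 in SF1 against 59.5 to 73.5 in control, while Sprr2d spread from 112.8 to 1275.88 in SF1.

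The 250 bases before the annotated start are shown for the 2 members that were called, and for Sprr2h and Sprr1a, which were not, since the family members that rose and those that did not can be compared there. Sequences are from RefSeq (GRCm38.p6) and run 5′ to 3′ in the direction of the gene, with capitals marking matches to TGANTCA (the AP-1 site), to ATTTGCAT (the octamer) and to TATAAA (the TATA box). Sprr2f lies on the plus strand with the window chr3:92364937-92365186, Sprr2d on the plus strand with chr3:92338890-92339139, Sprr2h on the plus strand with chr3:92385435-92385684, and Sprr1a on the minus strand with chr3:92485882-92486131.
Sprr2f: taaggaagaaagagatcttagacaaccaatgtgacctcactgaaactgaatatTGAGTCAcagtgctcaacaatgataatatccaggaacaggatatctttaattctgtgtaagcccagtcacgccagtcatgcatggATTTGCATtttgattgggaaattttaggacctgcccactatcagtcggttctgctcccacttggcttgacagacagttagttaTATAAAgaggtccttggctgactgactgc
Sprr2d: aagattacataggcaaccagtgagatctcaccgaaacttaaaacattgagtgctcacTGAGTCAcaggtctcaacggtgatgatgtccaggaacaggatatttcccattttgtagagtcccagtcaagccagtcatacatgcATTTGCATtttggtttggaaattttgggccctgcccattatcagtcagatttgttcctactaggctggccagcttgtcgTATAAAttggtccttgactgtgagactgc
Sprr2h: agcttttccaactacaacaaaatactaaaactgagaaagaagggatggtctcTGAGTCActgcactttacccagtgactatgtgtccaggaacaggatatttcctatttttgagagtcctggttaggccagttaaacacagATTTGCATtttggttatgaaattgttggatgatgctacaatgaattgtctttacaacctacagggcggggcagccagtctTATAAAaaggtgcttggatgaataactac
Sprr1a: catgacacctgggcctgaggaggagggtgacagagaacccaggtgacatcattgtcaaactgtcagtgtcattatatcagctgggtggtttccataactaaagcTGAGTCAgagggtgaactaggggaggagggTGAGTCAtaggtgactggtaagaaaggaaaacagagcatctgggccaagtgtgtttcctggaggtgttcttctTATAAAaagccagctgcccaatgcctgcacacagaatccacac

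The 3 Sprr2 windows carry the same motifs in the same order. TGAGTCA starts 197 bases before the start of Sprr2f, 193 before that of Sprr2d and 198 before that of Sprr2h. The octamer starts 112, 108 and 109 bases before, and the TATA box 29 bases before in each. Sprr2b, Sprr2e, Sprr2i and Sprr2k have this arrangement as well, so it is shared by genes that were called, genes that were not and genes without a probe set of their own. Sprr1a has TGAGTCA at 2 places and no octamer, and Sprr3 has neither. TGAGTCA, searched on both strands, occurred in 8 of 14 Sprr windows and in 4.46% of all 32851 windows of this length. With any base in the middle (TGANTCA, which includes TGAGTCA) the figures were 9 of 14 and 6.75%. The octamer occurred in 7 of 14 Sprr windows and in 1.60% of all, and TATAAA in 10 of 14 and 12.4%. Several Sprr windows resemble each other, as given below, so these are not counts of independent windows. AAGGTCA, the half-site bound by SF1, was in 0 of 14 windows and in 4.08% of all. The estrogen response element, GGTCA and TGACC spaced by 3 bases, was in 0 of 14 and in 0.0639% of all, and the STAT motif TTCNNNGAA only in that of Sprr2a3 (7.02% of all). A match is a description of letters and not a bound site, and a missing match says only that these letters are not in this window. By global alignment, the Sprr2f window matched that of Sprr2d at 71.1% of aligned positions, Sprr2e at 73.9%, Sprr2i at 74.0% and Sprr2h at 60.1%. Its match to Sprr1a was 48.8%. Sprr2d and Sprr2e matched at 89.3%, and the windows of Sprr2a1 and Sprr2a2 were identical.

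**Figure D2:**
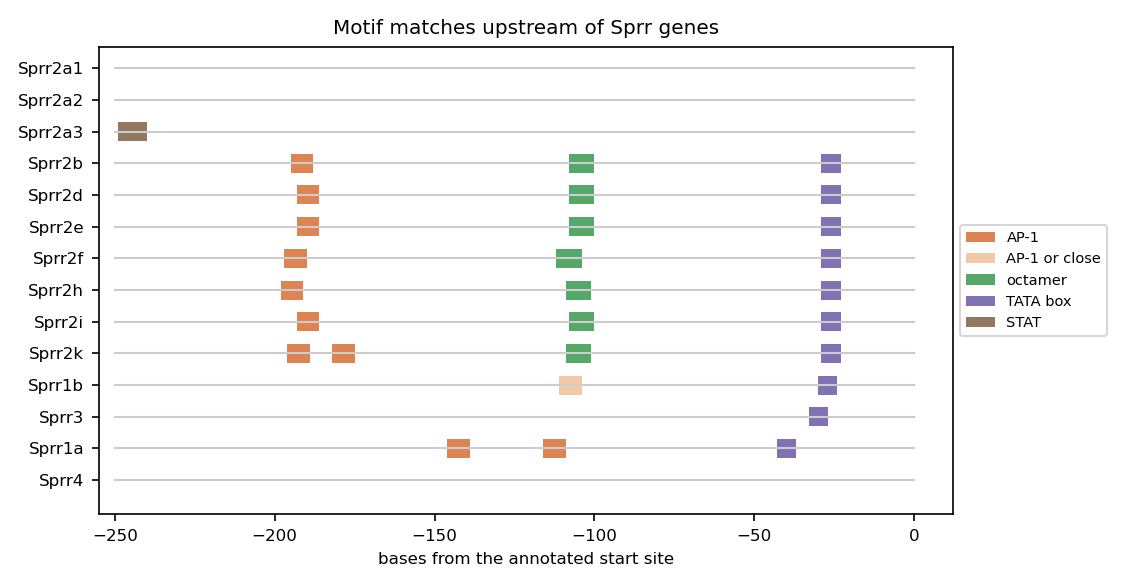
Positions of motif matches (coloured boxes) in the 250 bases before the annotated start of each Sprr gene; the horizontal axis gives bases from the start. The AP-1, octamer and TATA matches sit in line in 7 Sprr2 genes, among them Sprr2f and Sprr2h, and no match is drawn for Sprr2a1, Sprr2a2 or Sprr4.

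Sprr2h, the measured member next along the chromosome after Sprr2f, did not pass the test. It read 37.3, 26.2 and 52.4 in control arrays 1 to 3 and 41.2, 40.4 and 36.5 in SF1 replicates 1 to 3. The SF1 arrays all lay inside the control range. The log2 difference was 0.05 (95% interval -0.31 to 0.40; limma adjusted p = 0.869), an interval that excludes a change as large as that of Sprr2f. The identifier of this probe set carries Affymetrix's suffix s_at, a mark for probes shared by several transcripts, so it may read other Sprr2 genes too.

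Sprr2a1 was read by 3 probe sets that also carry Sprr2a2 or Sprr2a3, near-identical copies. The probe set shared by Sprr2a1, Sprr2a2 and Sprr2a3 read 306.3, 276.2 and 308.5 in control arrays 1 to 3 and 329.0, 735.7 and 336.1 in SF1 replicates 1 to 3. The groups did not overlap, yet SF1 replicates 1 and 3 stood just above control and replicate 2 far above. Its log2 difference was 0.53 (95% interval -0.08 to 1.13, limma adjusted p = 0.22). The brighter probe set shared by Sprr2a1 and Sprr2a2 read 175.1 to 217.8 in control and 234.1, 369.0 and 206.1 in SF1 replicates 1 to 3, again highest in replicate 2, with overlapping groups (0.44, 95% interval 0.00 to 0.87, adjusted p = 0.164). The dimmer one read 20.5 to 30.5 in control and 20.8 to 25.3 in SF1 (-0.12, adjusted p = 0.471). The 2 brighter of the 3 probe sets thus had positive differences, and the dimmest, where a reading may be background, a slightly negative one. None of the 3 passed the test.

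Sprr1a and Sprr1b encode the first type of envelope Sprr protein. Sprr1a read 66.2, 78.2 and 74.6 in control arrays 1 to 3 and 71.6, 119.0 and 88.0 in SF1 replicates 1 to 3. Here too SF1 replicate 2 was highest, replicate 1 lay inside the control range, and the log2 difference was 0.27 (95% interval -0.07 to 0.61, limma adjusted p = 0.257). Sprr1b read 6.77 to 11.2 in control and 8.60 to 11.3 in SF1, near the low end of the array's readings (0.04, 95% interval -0.17 to 0.25, adjusted p = 0.788). Sprr3, the member typical of oesophageal and other internal squamous linings, read 117.1 to 181.9 in control and 104.9 to 122.4 in SF1 (-0.25, 95% interval -0.59 to 0.09, adjusted p = 0.292). None of these intervals reaches a log2 change of 1. The files used here hold no detection calls, so a low reading may be background.

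Among Sprr genes outside the listed 10, Sprr2k read 315.9 to 377.3 in control and 365.8 to 381.5 in SF1 (log2 difference 0.11, limma adjusted p = 0.407). Sprr2i read 38.4 to 43.4 in control and 24.4 to 37.5 in SF1 (-0.23, adjusted p = 0.224), the only Sprr probe set whose SF1 arrays all lay below control. The pseudogene Sprr2j-ps read 6.99 to 9.47 in control and 3.24 to 8.66 in SF1 (-0.22, adjusted p = 0.226). In all, 2 of 6 measured members were called higher and 0 lower, where 8.37% of all genes were called higher and 8.11% lower. Also at an unadjusted limma p under 0.05, 0 members were lower, where 18.4% of all genes were. Over the 12 Sprr probe sets, 2 were called higher and 0 lower, where 5.88% of all probe sets were called higher and 8.08% lower. Groups did not overlap for 2 members, both higher, where 16.2% of all genes were separate and higher and 23.7% separate and lower. The median log2 change of the 6 members was 0.16, against -0.05 over all genes.

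**Figure D3:**
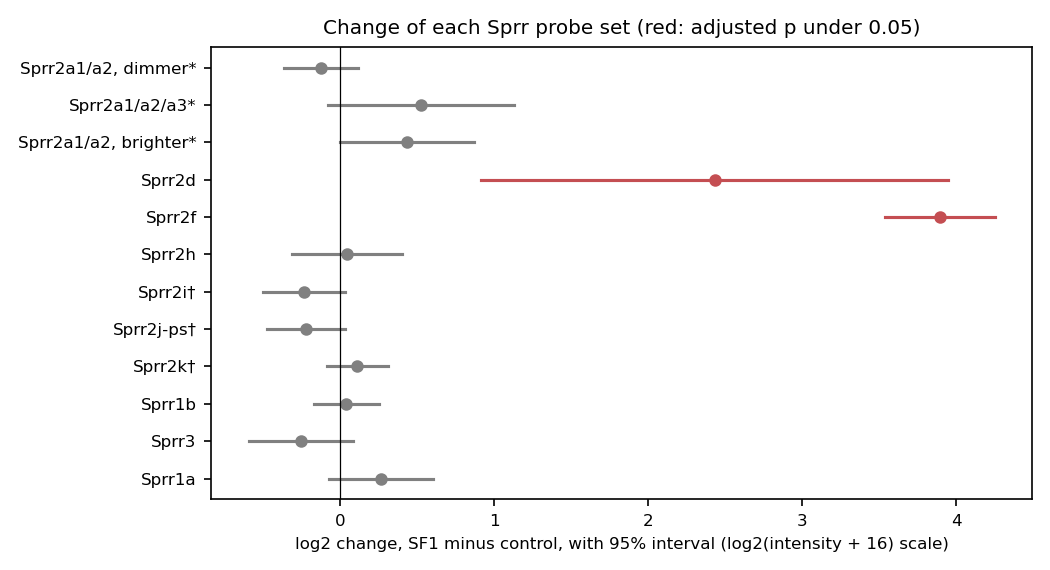
Log2 change (SF1 minus control) of each Sprr probe set with its 95% interval, in gene order; red marks an adjusted p under 0.05 and grey the rest. Sprr2f (3.89) and Sprr2d (2.43) stand to the right, and the other 10 intervals include or nearly touch 0.

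The change of Sprr2f was set against each of the other 11 Sprr probe sets by the difference of log2 values within an array. It exceeded that of the 10 probe sets other than Sprr2d by 3.37 to 4.15 log2 units, each at an exact two-sided permutation p of 0.1, the smallest that 3 against 3 arrays allow, so the design cannot reach 0.05 (0.11 after Benjamini-Hochberg adjustment over the 11). Against Sprr2d the difference was 1.46 (exact permutation p = 0.2). Sprr2f had the largest change of the 12 probe sets in these same arrays, and its values enter all 11 comparisons. These p-values are therefore no independent support for its call. In 5 of 6 members, and in 7 of 12 Sprr probe sets, SF1 replicate 2 read highest of the SF1 arrays. The same replicate read highest for 39.5% of all genes.

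Other genes of the epidermal differentiation complex were set beside the members. Of 38 measured (50 listed), 3 were called higher and 0 lower, against 8.37% and 8.11% of all genes, with a median log2 change of -0.02. The count called higher is near the share of all genes. Several of the 38 read near the low end of the array's readings, where background may hide a change. S100a4, a calcium-binding protein of motile and stromal cells, read 359.2 to 537.9 in control and 826.9 to 1046 in SF1, with no overlap (log2 change 1.07 ± 0.15, SE; limma adjusted p = 0.00192). Tchh, the trichohyalin gene (0.63, adjusted p = 0.0481), and S100a1 (0.41, adjusted p = 0.0334) were also called, but Tchh kept its call only without SF1 replicate 2 or control replicate 2 when arrays were left out singly (highest adjusted p = 0.146), and S100a1 only without control replicate 3 (highest 0.102). Involucrin and loricrin, the envelope proteins to which Sprr proteins are joined, were not called. Ivl read 60.8 to 83.6 in control and 71.1 to 82.1 in SF1 (0.08, adjusted p = 0.649). Lor read 188.0 to 214.7 and 135.2 to 205.2 (-0.19, adjusted p = 0.371).

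Of 25 cross-linkers and other envelope proteins, 4 were called higher and 0 lower, against 8.37% and 8.11% of all genes. Their median log2 change was -0.07. Dmkn, the gene of the secreted epithelial protein dermokine, read 46.3, 29.6 and 40.2 in control arrays 1 to 3 and 538.3, 389.3 and 664.9 in SF1 replicates 1 to 3. All SF1 arrays were far above control, and replicate 2 was here the lowest of them (3.30 ± 0.19, SE; limma adjusted p = 1.92e-05). Slpi, a secreted protease inhibitor, read 392.5 to 405.7 in control and 590.0, 1377.23 and 735.5 in SF1 replicates 1 to 3 (1.06, adjusted p = 0.0281), a call lost without SF1 replicate 3 or without any control array (highest 0.0786). Dsp, the desmosomal plaque protein desmoplakin, rose by 0.99 (adjusted p = 0.000492). Tgm1, a transglutaminase that joins Sprr proteins, read 68.6 to 78.4 in control and 91.6 to 96.1 in SF1 (0.29, adjusted p = 0.0397), a call lost on omitting any array but control replicate 2 (highest 0.113). The other transglutaminases Tgm2, Tgm3 and Tgm5 were not called, with log2 differences of 0.11, -0.09 and -0.23.

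Markers of stratified squamous epithelium were set beside the Sprr values, since cervix and vagina carry such a lining. Of 18 measured markers (20 listed), 2 were called higher and 0 lower, against 8.37% and 8.11% of all genes. Their median log2 change was -0.03. Ly6d, a surface protein of squamous and other epithelial cells, read 78.8, 82.4 and 110.1 in control arrays 1 to 3 and 768.5, 1411.42 and 776.0 in SF1 replicates 1 to 3 (3.19 ± 0.23, SE; limma adjusted p = 5.50e-05). Calml3, a calmodulin-like protein of epithelial cells, read 32.5 to 38.0 in control and 78.3, 203.1 and 97.9 in SF1 replicates 1 to 3 (1.39, adjusted p = 0.00937). Both were highest in SF1 replicate 2, as Sprr2f and Sprr2d were. The defining basal markers were not called, with log2 differences of 0.28 for Krt5, 0.11 for Krt14 and -0.02 for Trp63. Nor were the suprabasal Krt13 (-0.03), Krt1 (-0.06) and Krt10 (-0.15). Krt5 read 346.9 to 368.4 in control and 291.2, 555.2 and 526.9 in SF1 replicates 1 to 3, below control in replicate 1 and above it in the others. The basal keratin Krt15 read 62.8 to 74.9 in control and 75.2, 83.4 and 456.4 in SF1 replicates 1 to 3, with no overlap (0.96, adjusted p = 0.264). The basal collagen Col17a1 read 34.8 to 46.9 in control and 37.4, 33.7 and 114.9 in SF1 replicates 1 to 3 (0.36, adjusted p = 0.487). Both were far higher in SF1 replicate 3 than in the other arrays. Without SF1 replicate 1, Krt5 was called higher (0.56, adjusted p = 0.00824). The summed intensity of the 18 markers was 2258 to 2424 in control and 2864 to 3962 in SF1. Without Ly6d the sums overlapped, at 2179 to 2327 in control and 2095, 2551 and 2853 in SF1 replicates 1 to 3. With no detection calls, how much of these readings is background is not known. The part of squamous cells in the Sprr values was not tested.

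Of 6 urothelial markers, which could mark bladder tissue, 1 was called higher and 0 lower, against 8.37% and 8.11% of all genes. The called marker was Krt20 (log2 change 0.90, limma adjusted p = 0.00294). The uroplakins Upk1a (-0.14), Upk2 (-0.18), Upk3a (-0.07), Upk1b (0.15) and Upk3b (0.15) were not called, and the 6 markers summed to 1360 to 1572 in control and 1475 to 1700 in SF1. Of 11 measured markers of simple epithelium, 6 were called higher and 1 lower, against the same 8.37% and 8.11%. The 6 became 3 without SF1 replicate 1, 4 without SF1 replicate 2, control replicate 1 or control replicate 3, and 5 without control replicate 2. Cldn4, Cldn7 and Epcam were the calls lost in these fits (highest adjusted p = 0.106, 0.091 and 0.0541). Muc1 (1.93), the simple keratin Krt7 (1.80) and Cdh1 (0.71) rose most, and Krt19 (-0.36) was lower, a call that held only without SF1 replicate 2 or control replicate 2 when arrays were omitted singly (highest adjusted p = 0.114). Krt8 (0.25) and Krt18 (-0.08), which together form the keratin pair of simple epithelia, were not called. The summed intensity of these markers was 18701 to 19674 in control and 22169 to 24883 in SF1. Their part in the Sprr values was not tested.

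**Figure D4:**
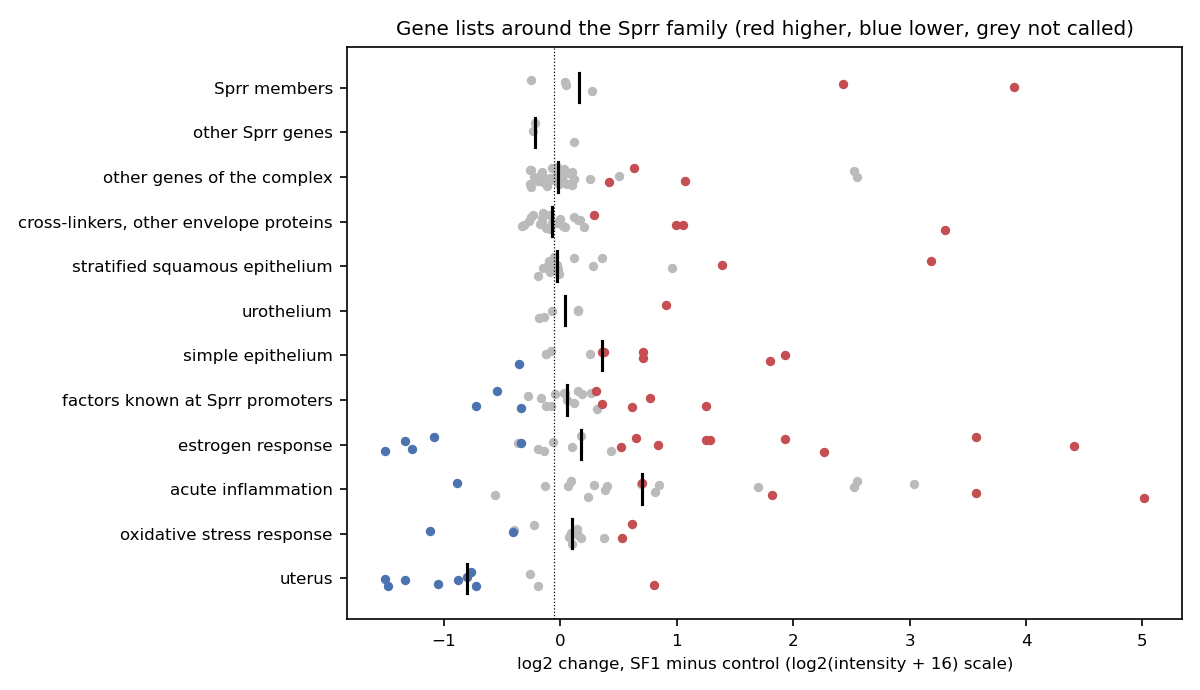
Log2 change (SF1 minus control) of every measured gene in the lists set around the Sprr family; red points were called higher, blue lower and grey not called, the short bars are list medians and the dotted line is the median of all genes (-0.05). In the Sprr members and the envelope protein lists a few points stand far to the right while the median stays near that line.

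Genes listed as estrogen-responsive in the uterine epithelium were called in both directions. The list does not sort genes by whether estrogen raises or lowers them, so its counts give no direction of an estrogen response. Of 21 measured (23 listed), 9 were called higher and 5 lower, against 8.37% and 8.11% of all genes. Ltf, the lactotransferrin gene, read 189.3 to 219.8 in control and 4348.89 to 4904.79 in SF1 (log2 change 4.41, limma adjusted p = 1.11e-07). Lcn2, a siderophore-binding secreted protein, rose by 3.57 (adjusted p = 0.000432), and Clu, the chaperone clusterin, by 2.27 (adjusted p = 0.00198). Wnt7a (-1.50), an epithelial Wnt ligand, and Pgr (-1.34) were lowest. The 2 other Wnt7a probe sets were not called, while the 2 others of Pgr were called lower. Pgr is also the locus that held Cre in the SF1 group. Esr1, the estrogen receptor gene, was not called (-0.19, adjusted p = 0.118). In SF1 replicates 1 to 3 Lcn2 read 5307, 11672 and 3351, again highest in replicate 2 as Sprr2d was. Ltf read lowest there, at 4349.

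Acute inflammation genes were mostly highest in SF1 replicate 2. Of 20 genes, 4 were called higher and 1 lower, against 8.37% and 8.11% of all genes. Among the SF1 arrays, 18 of the 20 read highest in replicate 2, against 39.5% of all genes. The list was chosen with earlier results of these data known. S100a8, a neutrophil protein gene of the same chromosomal complex, read 112.1, 75.2 and 337.0 in control arrays 1 to 3. In SF1 replicates 1 to 3 it read 327.3, 11518 and 191.8, so that SF1 replicates 1 and 3 lay within the control range (log2 difference 2.55, limma adjusted p = 0.23). Cxcl5, a neutrophil chemokine, read 11.7 to 13.3 in control and 600.0, 2688.43 and 449.3 in SF1 replicates 1 to 3 (5.01, adjusted p = 0.000505). Lcn2 (3.57) and Timp1, a metalloproteinase inhibitor (1.82, adjusted p = 0.0407), were called too. Timp1 was no longer called without SF1 replicate 1 or without any control array (highest 0.107). Il33, an alarmin, was called at 0.70 (adjusted p = 0.0477), a call that held on omitting SF1 replicate 1 and no other array (highest 0.13), and the pentraxin gene Ptx3 fell by 0.89. Relative to the mean of SF1 replicates 1 and 3, replicate 2 read 5.44-fold for Sprr2d, 2.21-fold for the probe set of Sprr2a1, Sprr2a2 and Sprr2a3, 1.68-fold for the brighter one of Sprr2a1 and Sprr2a2, 1.49-fold for Sprr1a and 1.37-fold for Sprr2f. For the other 7 Sprr probe sets the ratio lay between 0.54, for Sprr2j-ps, and 1.29, for Sprr1b. The summed intensity of the 20 inflammation genes was 2920 to 3352 in control and 9435, 46537 and 6868 in SF1 replicates 1 to 3, and their part in the uneven Sprr2d values was not tested. Without SF1 replicate 2 the log2 change of Sprr2f was 3.74 (limma adjusted p = 1.22e-05). Cxcl5 and Lcn2 also stood above control in SF1 replicates 1 and 3, so omitting that array does not take the inflammation genes away. Their part in the Sprr2f values was not tested.

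**Figure D5:**
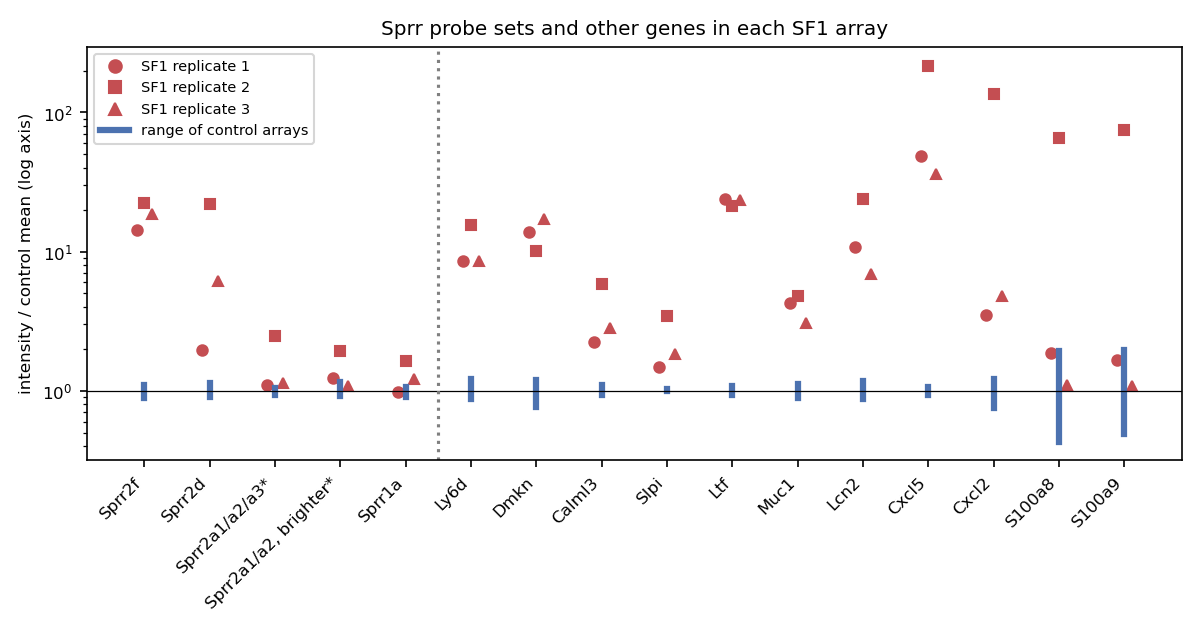
Intensity in each SF1 array divided by the control mean (log axis) for 5 Sprr probe sets, left of the dotted line, and 11 other genes; blue bars span the control arrays. Replicate 2 is the highest SF1 array for the 5 Sprr probe sets and for S100a8, S100a9, Cxcl2, Cxcl5 and Lcn2. It is also highest for Ly6d, Calml3, Slpi and Muc1, but not for Dmkn or Ltf. The 5 Sprr probe sets were chosen for the figure and do not stand for the family. Over all 12 Sprr probe sets, replicate 2 was highest in 7.

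Transcription factors of the AP-1, Ets, Klf and related families, several of which are known to act on Sprr promoters, changed in part. Of 21 measured (22 listed), 5 were called higher and 3 lower, against 8.37% and 8.11% of all genes. Fos, a component of AP-1, read 398.4, 216.0 and 283.6 in control arrays 1 to 3 and 686.6, 1036 and 505.6 in SF1 replicates 1 to 3 (log2 change 1.25, limma adjusted p = 0.0172). Its AP-1 partner Junb read 433.0 to 485.8 in control and 704.4, 1148 and 629.5 in SF1 replicates 1 to 3 (0.77, adjusted p = 0.0324). Both were highest in SF1 replicate 2. Fos was no longer called without SF1 replicate 1 or control replicate 3 (highest 0.0548), nor Junb without SF1 replicate 1 or any control array (highest 0.0908). Stat3, a mediator of cytokine signals, was called at 0.61 (adjusted p = 0.0254), a call lost without SF1 replicate 1 or 2 (highest 0.0863). None of the 3 other Stat3 probe sets was called. Klf5 (-0.72) and Maf (-0.55), factors of epithelial differentiation, were lower. Elf3 (0.19), Ehf (-0.05) and Jun (-0.16) were not called. The count of factors called higher was 1 without SF1 replicate 1, 2 without control replicate 3 and 3 without any one of the other arrays. Of 13 measured genes of the oxidative stress response (16 listed), 2 were called higher and 2 lower, against the same 8.37% and 8.11%. Sod2, the mitochondrial superoxide dismutase, rose by 0.61 and Gpx2 was called at 0.53 but not without SF1 replicate 1 or control replicate 2 or 3 (highest adjusted p = 0.065), while Slc7a11, the cystine transporter, fell by 1.12 and Gclc by 0.41.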

How the data were processed

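Total RNA of 6 pools was hybridised to Affymetrix 430 2.0 mouse arrays, per the labels. The authors deposited 1 linear intensity per probe set and array. The background correction, normalization and summarization behind them are not given in the sources used here. Of 45101 probe sets, 64 Affymetrix controls were set aside. Names came from a platform annotation table (34945 probe sets with 1 symbol, 932 with several, 9160 with none). Each gene took, among probe sets with its symbol alone, the one whose mean log2 value was highest. Other probe sets of a called gene did not always give its call. None was called for Stat3 (3 others), Wnt7a (2), or S100a1, Epcam, Ptx3, Slc7a11 and Gclc (1 each). For the other named calls with further probe sets, at least 1 was called alike, such as 3 of 3 for Clu and 4 of 5 for Maf. The uncalled Cxcl1 had 2 other probe sets, which were called higher.

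Values were transformed as log2(intensity + 16) and fitted with limma 3.58.1 (lmFit, eBayes) in R 4.3.3 over all 45037 probe sets, with no filter on low values, and called at a Benjamini-Hochberg adjusted p under 0.05. All adjusted p-values are from that fit. Precision is limited by the small number of arrays (median SD between arrays 0.108 log2 units in control, 0.1 in SF1). Pools of 2 uteri were separate, per the labels, which name no batch. The fit was tested on simulated data. Alternatives were quantile normalization, median centring, pseudocounts of 1 and 64, a filter on dim probe sets, a block for replicate number, a trended robust variance, averaging probe sets per gene, stricter thresholds and each array left out.

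Promoter windows were aligned with Biopython 1.88. Named genes were all Sprr probe sets, Nr5a1, Pgr, fixed cell type markers, every called gene of the complex, and up to 3 called rises and 2 called falls per list. Tgm1, Il33, Krt15, Col17a1, Upk1b, Upk3b, Cldn4, Cldn7, Epcam, S100a8, S100a9, Cxcl1, Cxcl2, Hoxa10, Hoxa11, Hand2, Krt8, Krt18, Esr1, Elf3, Ehf, Jun and the uncalled transglutaminases were added after their values were seen. Some genes stand in 2 lists (Muc1, Lcn2, Fos, Klf4, Pgr, Wnt7a, Esr1, S100a8, S100a9). The members and lists were chosen with earlier results of these data known.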

Additional observations from a re-analysis of the deposited data

How the results depend on the processing

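The rise of Sprr2f kept its direction and its call under all 16 alternatives, and no named result was called in the opposite direction. Sprr genes and Sprr probe sets called higher fell from 2 to 1 at an adjusted p under 0.01 and with a pseudocount of 1 or 64. They did so too with a trended, robust variance and among the brighter probe sets. Of the 6 members only Sprr2f passed that brightness filter, which used the mean over all 6 arrays. It passed through its SF1 values, so that fit is no separate support for its call. Leaving out an array gave 1 to 2.

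Around the family, an adjusted p under 0.01 left 2 inflammation and 2 envelope genes, 3 simple epithelial genes, 1 of the complex and 0 factors higher, 1 oxidative stress gene in each direction and 0 simple epithelial genes lower. A fold of at least 1.5 left 3 factors higher and 1 lower, 1 oxidative stress gene in each direction and 0 simple epithelial genes lower. Among brighter probe sets 2 envelope genes were higher and 2 lower, 1 of the complex lower and 0 inflammation genes lower. There 1 squamous marker and 0 urothelial markers were higher. Dmkn, Tgm1, Calml3, Krt20 and Ptx3 did not pass that filter, so their calls were removed by it and not weakened. Of the genes left, 27.6% were called in either direction, against 16.5% of all genes in the main fit. A pseudocount of 1 gave 2 inflammation genes, 1 of the complex and 3 factors higher and 0 simple epithelial genes lower, and one of 64 gave 2 envelope genes and 1 of the complex lower. The trended variance gave 2 inflammation genes, 2 envelope genes and 3 factors higher, and 2 envelope genes and 1 of the complex lower. Quantile normalization gave 1 envelope gene lower, median centring 0 simple epithelial genes lower, and the mean of probe sets 3 factors higher, 1 envelope gene and 1 of the complex lower.

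Leaving out an array gave, for genes called higher, 2 to 5 of inflammation, 2 to 3 of the envelope, 1 to 2 of the complex, 1 to 2 of oxidative stress, 3 to 6 of simple epithelium and 1 to 3 factors, and for genes called lower, 0 to 1 of the complex and 0 to 1 of simple epithelium. The causes were not tested.

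The replicate numbers did not pair the arrays: deviations from the group means correlated at -0.06, -0.10 and -0.18 between same-numbered arrays. With the replicate block, 2 Sprr genes stayed called higher, with 2 inflammation genes, 1 of the complex, 1 of oxidative stress and 2 factors higher and 0 simple epithelial genes lower. No detection calls were used, so how far dim probe sets stand above background is not known.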
